A study of Mus musculus with 6 samples.

Results

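The genes examined here carry the transforming growth factor-β (TGF-β) signal into a T cell: *Tgfb1*, *Tgfbr1*, *Tgfbr2*, *Smad2*, *Smad3*, *Smad4*, *Smad6*, *Smad7*, *Ski* and *Skil*, 10 of 21951 protein-coding genes. Merging touching and overlapping peaks across the 6 lists gave 236017 regions, of which 156 lay in the bodies of the 10 genes or within 30 kb on either side. They came from ATAC-seq, an assay that reads accessible DNA from where the transposase Tn5 inserts. Each of the 3 T helper subsets had 2 libraries, labelled replicate 1 and replicate 3. Naive CD4+CD62L+ cells of wild-type C57BL6/J mice, taken from spleen (and, in the methods, lymph nodes as well), were activated through CD3 and CD28 and collected on the fifth day. The methods give mice of both sexes, and the animals behind each library are not stated. Th2 cultures received IL-4, IL-2 and an antibody to IFNγ. Th9 cultures received the same and TGF-β1. Th17 cultures received TGF-β1 too, but with IL-6, IL-23, IL-1β and antibodies to IFNγ, IL-4 and IL-2. By these recipes Th9 differed from Th2 in TGF-β1 alone, whereas the comparison of Th17 with Th2 cannot tell TGF-β1 apart from the other cytokines. Whether the libraries also differed in animals or batch is not stated, so no difference below is assigned to TGF-β1. These groups are mixed cultures, not sorted cytokine producers.

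TGF-β is secreted in a latent form and, once released, binds the type II receptor, which then activates the type I receptor. The type I receptor phosphorylates SMAD2 and SMAD3, which join SMAD4 and enter the nucleus. SMAD6 and SMAD7 block the pathway, and the corepressors SKI and SKIL (SnoN) hold SMAD complexes inactive. In CD4 T cells the signal serves Th9, Th17 and regulatory T cell differentiation, which is why its own genes were compared between cultures with and without the cytokine.

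The sequences below show 5 of the regions described in the results, 3 chosen for the libraries that called them and 2 for a difference in strength that passed the test close to its threshold. The regions with the smallest adjusted p for the mean of Th9 and Th17 against Th2, at *Smad2* and *Smad7*, are described without their sequence. Each is 200 bp at the centre of the part shared by the libraries that called the region, on the plus strand of GRCm38 (mm10), and overlaps no annotated exon. The first lies in an intron of *Tgfbr1* (chr4:47407280-47407479) and was called in both Th2 libraries alone. The next pair lies in introns of *Tgfbr2* (chr9:116114367-116114566 and chr9:116164043-116164242), in the only regions called in all 4 Th9 and Th17 libraries and in neither Th2 library. The *Smad3* window (chr9:63674658-63674857) was weaker, and the *Ski* window (chr4:155162649-155162848) stronger, in Th9 and Th17 than in Th2; both are intronic.
Tgfbr1 window: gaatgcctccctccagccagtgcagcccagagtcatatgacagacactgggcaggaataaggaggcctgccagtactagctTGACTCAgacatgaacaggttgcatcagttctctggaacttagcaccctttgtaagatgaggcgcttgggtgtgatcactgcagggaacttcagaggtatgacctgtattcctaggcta
Tgfbr2 far window: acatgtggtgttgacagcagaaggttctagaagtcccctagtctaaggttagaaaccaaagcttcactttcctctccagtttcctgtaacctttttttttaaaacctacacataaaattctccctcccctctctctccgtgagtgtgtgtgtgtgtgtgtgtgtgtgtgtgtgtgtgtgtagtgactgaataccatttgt
Tgfbr2 near window: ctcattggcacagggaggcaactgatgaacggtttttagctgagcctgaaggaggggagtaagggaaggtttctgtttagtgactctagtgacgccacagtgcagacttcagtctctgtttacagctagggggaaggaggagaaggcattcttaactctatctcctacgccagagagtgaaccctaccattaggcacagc
Smad3 window: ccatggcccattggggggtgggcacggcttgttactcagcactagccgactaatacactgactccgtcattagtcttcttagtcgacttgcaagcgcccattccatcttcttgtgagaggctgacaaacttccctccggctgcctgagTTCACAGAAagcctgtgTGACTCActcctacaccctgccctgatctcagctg
Ski window: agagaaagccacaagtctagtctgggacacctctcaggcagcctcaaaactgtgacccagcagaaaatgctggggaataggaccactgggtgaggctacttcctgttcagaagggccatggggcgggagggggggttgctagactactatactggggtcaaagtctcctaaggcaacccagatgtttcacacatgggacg
Capitals mark matches to 3 short words, searched on both strands, each of which reads the same on either: the SMAD palindrome GTCTAGAC, the AP-1 word TGANTCA and the STAT word TTCNNNGAA. Among the 5 windows, the *Tgfbr1* window held 1 AP-1 match and the *Smad3* window held 1 AP-1 and 1 STAT match, which did not overlap. Windows of the same length at 236016 regions held the AP-1 word in 9.04%, the STAT word in 5.51% and the SMAD palindrome in 0.178%. Of the 156 regions near the 10 genes, 24 (15.4%) held the AP-1 word, 10 (6.41%) the STAT word and 0 the palindrome. A match describes letters only.

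The lists held 100317 to 142213 peaks. Read counts are not in the lists, so the depth is unknown. The weakest call had a fold enrichment of 2.11 in Th9 replicate 1, which had the longest list, and of 1.71 to 1.83 in the other 5 libraries. A missing call means only that a site was not detectable in that list. Promoters of the T cell genes *Cd3e*, *Cd3g*, *Cd3d* and *Cd28* were called in 6 of 6 libraries and *Cd4* in 4. *Il17f* and *Il23r* were called in the Th17 libraries alone, and *Il9* had percentiles of 88.6 and 90.7 in Th9 against 37.1 and 44.4 in Th2. Of the genes of other cells, *Cd8a*, *Ms4a1*, *Cd79a*, *Itgam*, *Lyz2*, *Csf1r* and *Ncr1* had 0 calls and *Klrb1c* 1, but *Cd8b1* was called in 6 libraries and *Adgre1* in 4, all Th9 or Th2. What other cells contributed was not tested.

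The neighbourhoods of these genes held 5.43 to 21.49 regions per 100 kb. Their median of 12.94 lay above the median of all protein-coding genes, 9.51, but within the quartiles of 6.22 and 13.37. *Smad7* and *Ski* were densest, at 21.49 and 20.23, and *Smad6* and *Tgfbr1* sparsest, at 5.43 and 6.57. Of the 156 regions, 71 were intronic, 35 upstream, 38 downstream, 11 over a promoter and 1 exonic. The 10 genes had 110.5 ± 6.36 regions called in Th9, 110.0 ± 11.31 in Th2 and 99.5 ± 10.61 in Th17 (SD, n = 2 each), so the subset means differed by about the spread between replicates. The length covered was 122.4 ± 17.11 kb, 135.8 ± 19.23 kb and 108.45 ± 0.64 kb. Single genes departed from this evenness: at *Tgfbr1* the Th2 libraries each called 7 regions, the Th9 libraries 4 and the Th17 libraries 2.

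**Figure D1:**
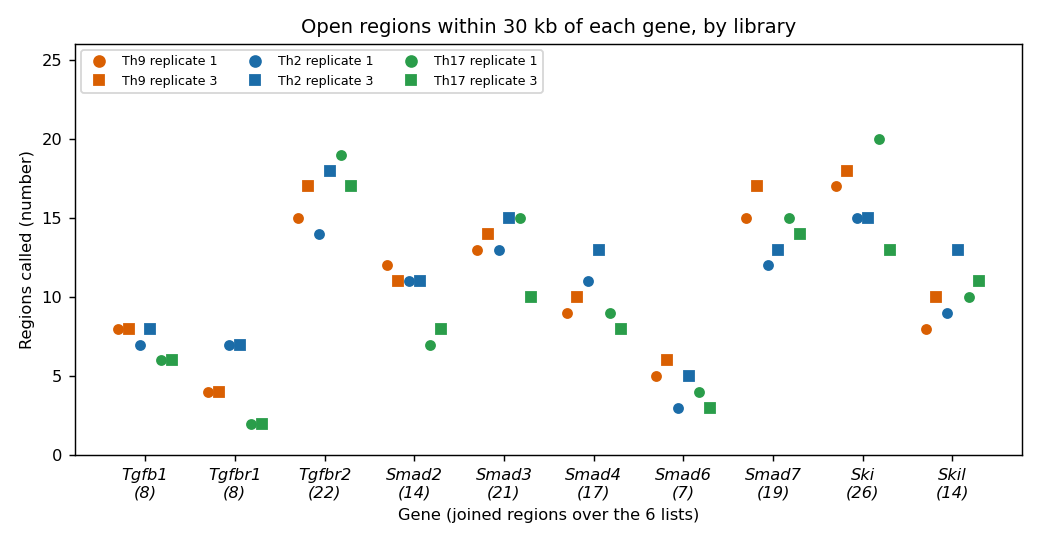
Number of regions called in each library (points) within 30 kb of each gene, coloured by subset, with the joined total over the 6 lists under the gene name. At *Tgfbr1* the 2 libraries of each subset coincide, at 7 in Th2, 4 in Th9 and 2 in Th17. At *Smad3* and *Ski* the Th17 libraries lie far apart. Over all regions, the share called per library runs from 40.3% (Th9 replicate 3) to 57.8% (Th2 replicate 1).

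To ask whether Th9 and Th17 differed from Th2, the libraries calling each region were compared first. All 6 libraries called 69 of the 156 regions (44.2%, against 21.4% of all regions). The 69 were wider than the other 87, with a median of 1543 bp against 472 bp. Merging peaks of more libraries can widen a region, and how much it added was not tested. Regions called in all Th9 and Th17 libraries and in no Th2 library numbered 2 (1.28%, against 0.296% of all regions), and both lay in *Tgfbr2*. Regions called in both Th2 libraries alone numbered 6 (3.85%, against 2.87%), 2 each in *Tgfbr1* and *Smad4* and 1 each in *Tgfbr2* and *Smad2*. A further 6 were shared by Th9 and Th2 alone (3.85%, against 2% of all regions), 5 belonged to Th17 alone (3.21%, against 1.7%), 3 to Th9 alone (1.92%, against 1.31%) and 3 to Th2 and Th17 alone (1.92%, against 1.55%). These counts are small, and with a stricter −log10 q, 5 or more, the count for Th9 and Th17 was 0 in place of 2 (0.202% of all regions).

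Peak strength was then compared over the 69 shared regions. Fold enrichment, the peak's signal over a genome-wide background as the authors' peak caller gave it, was turned into a percentile within each library's list. In 9 regions every Th9 and Th17 library lay above both Th2 libraries (13.0%, against 7.32% of all regions called in every library), and in 9 every one lay below (13.0%, against 11.7%). On quantile-normalised log2 fold enrichment, tested with limma over all 50493 such regions, Th9 differed from Th2 in 1 higher region (1.45%, against 1.01% of all) and 1 lower region (1.45%, against 2.18%). Th17 was higher than Th2 in 2 (2.9%, against 2.4%) and lower in 5 (7.25%, against 5.04%). The mean of Th9 and Th17 was higher in 2 (2.9%, against 1.32%) and lower in 3 (4.35%, against 4.04%), and Th9 was higher than Th17 in 2 (2.9%, against 3.11%) and lower in 3 (4.35%, against 2.9%). With so few regions, these shares are close to those of all regions. The median difference between the Th9 and Th17 mean and Th2 was 0.06 over the 69 regions and 0.03 over all, on the log2 scale. The 4 comparisons share libraries, and their 19 calls fell on 12 regions. With a −log10 q of at least 5, only 9 of the 19 had a value, and all 9 stayed past the threshold. With a fold of at least 4, 5 had a value and 2 stayed. The regions without a value were no longer called in every library. On normal scores of the within-list rank, 3 of the 19 stayed past the threshold and the other 16 kept their direction only. Without Th17 replicate 3 likewise 3 stayed, without Th17 replicate 1 6 stayed, and with missing libraries of other regions filled at the lowest fold of their list 1 stayed, so the calls below are weakly held. A difference that did not pass is not shown to be absent. On data simulated with variances from limma's prior, the fit recovered most large shifts but no small ones. With each region's own variance it recovered no shifts. Only the mean of Th9 and Th17 against Th2 was scored. No source used here says that the libraries came from separate animals, so the p-values measure the spread between these libraries.

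**Figure D2:**
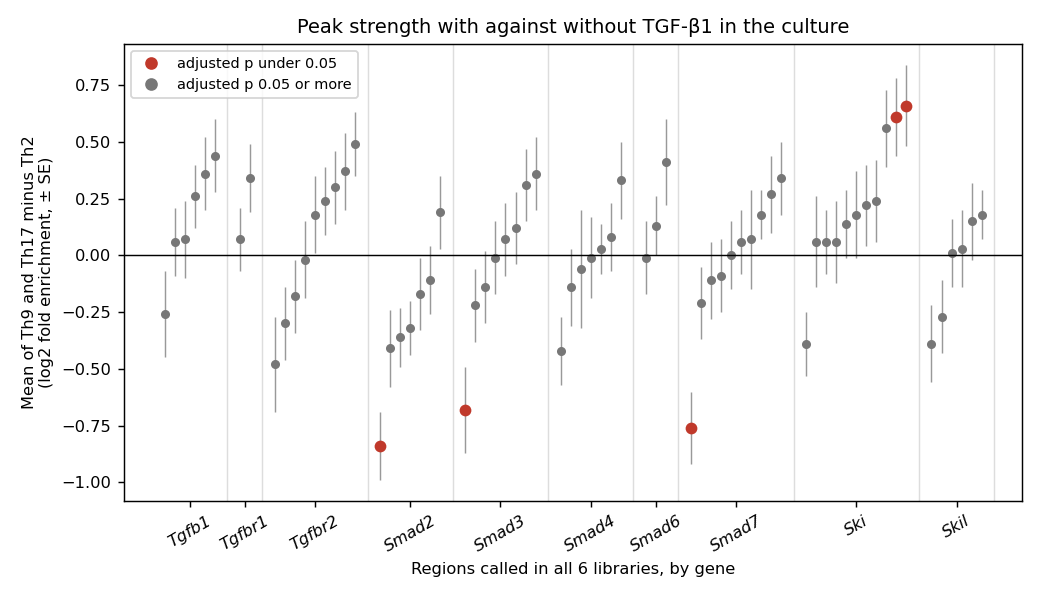
Difference between the mean of Th9 and Th17 and Th2 in quantile-normalised log2 fold enrichment (vertical axis, points with bars of ± SE from limma) for the 69 regions called in all 6 libraries, grouped by gene. The 5 red points passed an adjusted p of 0.05: 1 region each of *Smad2*, *Smad3* and *Smad7* lay below 0 and 2 of *Ski* above it.

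All 10 genes had a promoter peak in 6 of 6 libraries, whether the window ran from 1000 bp upstream to 100 bp downstream or 2000 bp on either side. The *Skil* promoter was among the strongest peaks of each list, at percentiles 97.6 to 99.8, and the *Smad2* promoter was at 99.2 to 99.7. *Smad6* and *Tgfbr2* had the lowest, at 80.0 to 90.0 and 84.9 to 93.1. The promoter of *Ski*, described with that gene, was the only one to pass the test.

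*Tgfb1* encodes the ligand. Its 8 regions held none that passed the test, and 6 were called in all libraries. The promoter region (chr7:25686119-25690405), which also covers an exon of *B9d2*, reached percentiles 94.1 and 96.6 in Th9, against 93.5 and 94.4 in Th2 and 94.3 and 90.0 in Th17, so the subsets overlapped. The largest difference, 0.44 ± 0.16 (SE) between the Th9 and Th17 mean and Th2, lay downstream over the promoter and an exon of the neighbouring *Ccdc97* (chr7:25718080-25720913), with percentiles of 94.2 and 87.4 in Th9, against 85.8 and 83.3 in Th2 and 89.4 and 87.2 in Th17. A downstream region over an exon of *Ccdc97* (chr7:25709954-25712739) was called in both Th9 and both Th2 libraries and in neither Th17 library.

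*Tgfbr1*, the type I receptor, differed between subsets in which of its 8 regions were called. Only 2 were called in all 6 libraries and tested for strength, and neither passed. Within its introns, chr4:47407282-47407533 was called in both Th2 libraries alone, over 183 bp at percentile 79.9 and over 252 bp at 90.2. It is the strongest of the 6 regions called in Th2 alone, and its sequence is the first printed above. A second such intronic region, chr4:47358998-47359512, stood lower, at 50.3 and 38.0. An intronic region 46805 bp from the start (chr4:47400027-47400923) was called at 37.1 and 71.3 in Th9 and at 84.1 in both Th2 libraries, but in neither Th17 library, and a downstream region (chr4:47425030-47426939) was called at 65.8 and 69.5 in Th9 and 75.3 and 75.6 in Th2, again in neither Th17 library. Away from the promoter, then, Th17 libraries called a single region of this gene. The promoter itself ran the other way: it lay at 94.9 and 96.1 in Th9, against 93.0 and 93.1 in Th2 and 96.1 and 94.2 in Th17, a difference of 0.34 between the Th9 and Th17 mean and Th2 that did not pass the test.

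*Tgfbr2* encodes the type II receptor, which binds the ligand. Its 22 regions included both of those called in the Th9 and Th17 libraries alone. The region 60142 bp into the gene (chr9:116114287-116115218) stood at percentiles 73.3 and 42.7 in Th9 and at 84.1 and 83.8 in Th17, over 238 to 929 bp. The other, 11104 bp in (chr9:116163958-116164256), stood at 44.0 and 33.0 in Th9 and 59.9 and 41.7 in Th17, over 177 to 249 bp. Neither Th2 library had a peak in either. An intronic region called in Th2 alone (chr9:116171970-116172625) was weak, at 16.0 and 28.6.

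Another pair of intronic *Tgfbr2* regions differed by subset. At chr9:116122598-116123539 the percentiles were 24.4 and 48.9 in Th9, with 22.3 and 6.9 in Th2 and 70.0 and 78.1 in Th17. Th17 was higher than Th2 by 0.78 ± 0.16 (SE) on the log2 scale (limma, adjusted p = 0.0061) and higher than Th9, where the Th9 minus Th17 difference was -0.58 (adjusted p = 0.0422). The first call was lost without Th17 replicate 3 (adjusted p = 0.075), and the second without Th9 replicate 1 (0.278) or Th17 replicate 3 (0.298). In the next intronic region, chr9:116124645-116126962, the order turned. Th9 stood at 80.2 and 79.4, Th2 at 60.7 and 57.4 and Th17 at 63.7 and 29.1. Th9 exceeded Th17 by 0.66 ± 0.18 (adjusted p = 0.0353). That call was lost without Th9 replicate 3 (0.136), Th17 replicate 1 (0.0965) or Th17 replicate 3 (0.424), and without Th2 replicate 3, where the joined region changes, the difference was -0.15. The promoter (chr9:116173525-116176615) was slightly weaker in Th9 and Th17, at 84.9 to 89.2 against 91.4 and 93.1 in Th2, and did not pass the test (-0.30 ± 0.16).

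**Figure D3:**
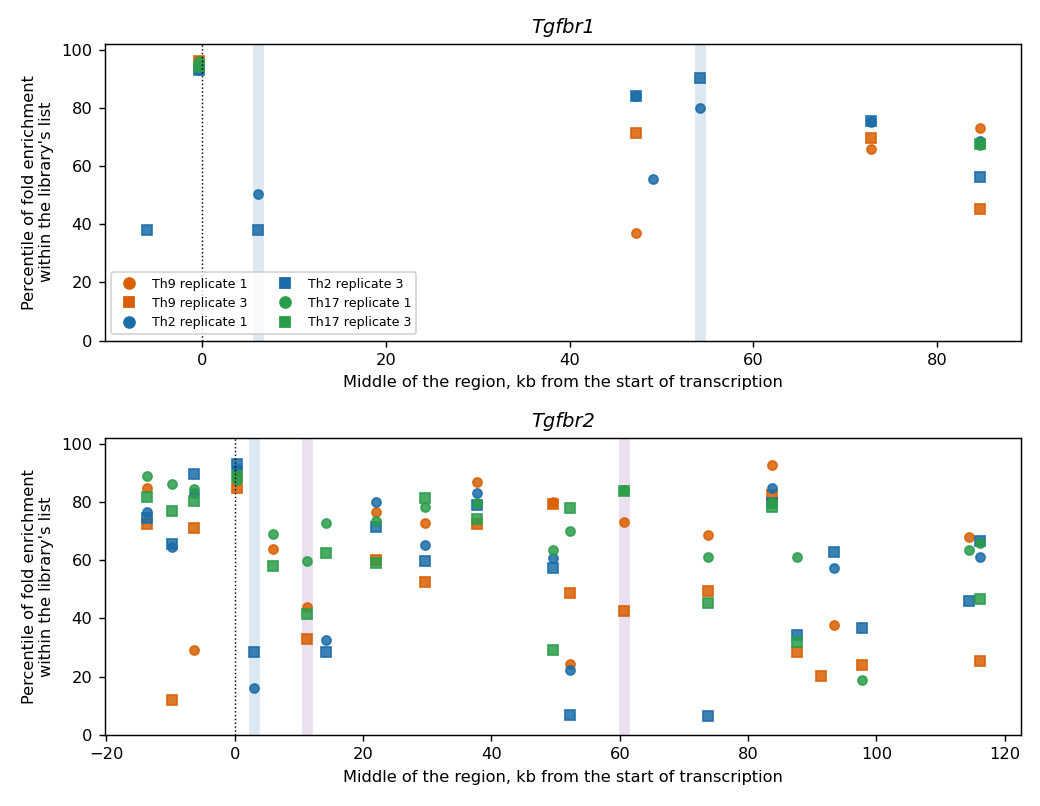
Percentile of fold enrichment within each library's list (vertical axis) against the distance of the middle of each region from the start of transcription (horizontal axis, kb) at *Tgfbr1* and *Tgfbr2*; each point is 1 library that called the region. Blue bands mark regions called in both Th2 libraries alone and purple bands the 2 *Tgfbr2* regions called in all Th9 and Th17 libraries and neither Th2 library.

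*Smad2*, phosphorylated by the type I receptor, held the region with the smallest adjusted p for the mean of Th9 and Th17 against Th2. An intronic region 8343 bp from the start (chr18:76249923-76250987) stood at percentiles 23.1 and 47.8 in Th9, against 83.8 and 84.7 in Th2 and 55.1 and 49.5 in Th17. Both Th2 libraries were above the other 4. The peaks were weak in Th9, at folds of 2.26 and 2.35, and in Th17, at 2.28 and 2.18. With a −log10 q of at least 5 or a fold of at least 4 the region was no longer called in every library, so it was not tested there. The difference from Th2 was -0.90 ± 0.18 (SE) in Th9 (limma, adjusted p = 0.0128), -0.79 ± 0.18 in Th17 (0.0101) and -0.84 ± 0.15 for their mean (0.00366). The mean call was kept with each library left out, though not on normal scores (0.0644) or with missing libraries filled (0.0504), whereas the Th9 call was lost without Th9 replicate 1 (0.0927) and the Th17 call without Th17 replicate 1 (0.112) or replicate 3 (0.125).

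In 3 other regions of *Smad2* a call involved Th17. Intronic chr18:76246964-76247296 was at 68.9 and 55.2 in Th9, with 70.1 and 69.3 in Th2 and 38.2 and 8.5 in Th17, lower in Th17 than in Th2 by -0.52 ± 0.14 (adjusted p = 0.0324). Intronic chr18:76254963-76257707 was at 89.4 and 76.7, 89.3 and 83.1, and 65.8 and 60.5 in the same order, a Th17 difference of -0.74 ± 0.20 (0.0303). Upstream, chr18:76215581-76216204 was at 95.2 and 91.3 in Th17, 88.5 and 86.2 in Th2 and 87.4 and 75 in Th9, and the Th9 minus Th17 difference was -0.85 ± 0.19 (0.0119). Single libraries decided these calls. The first was lost without Th2 replicate 1 (0.0541), Th2 replicate 3 (0.172), Th17 replicate 1 (0.137) or Th17 replicate 3 (0.384), the second without Th2 replicate 1 (0.187), Th17 replicate 1 (0.183) or Th17 replicate 3 (0.197), and the upstream call without Th9 replicate 3 (0.0901), Th17 replicate 1 (0.169) or Th17 replicate 3 (0.0603). The 7 tested regions had a median difference of -0.32 between the Th9 and Th17 mean and Th2. A region called in Th2 alone (chr18:76248010-76248526) was weak, at 24 and 6.9. Of the promoter regions, neither passed: the main start had a difference of -0.11 and a second annotated start (chr18:76259538-76260391) of -0.17.

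*Smad3*, the other receptor-activated SMAD, had 21 regions, 8 of them called in all 6 libraries. The intronic region 82793 bp from its start (chr9:63674506-63675201), shown in the sequences, was at percentiles 78.0 and 78.4 in Th9, against 88.6 and 90.8 in Th2 and 81.0 and 56.9 in Th17, so Th2 was above the other 4 libraries. Th17 was below Th2 by -0.77 ± 0.22 (limma, adjusted p = 0.0386) and the mean of Th9 and Th17 by -0.68 ± 0.19 (0.0465). The Th17 call was lost without Th2 replicate 3 (0.234), Th17 replicate 1 (0.0534) or Th17 replicate 3 (0.463), and the mean call without Th9 replicate 1 (0.0959), Th2 replicate 3 (0.328) or Th17 replicate 3 (0.197). An intronic region (chr9:63740582-63740887) was called in both Th17 libraries alone, at 83.6 and 78.6. The promoter was at 92.5 and 92.9 in Th9, with 88.2 and 87.1 in Th2 and 91.8 and 87.3 in Th17, with a difference of 0.36 ± 0.16 for the mean that did not pass.

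*Smad4*, the common partner, had calls in 1 of its 17 regions. This intronic region of 4783 bp (chr18:73689506-73694288) was at percentiles 99.1 and 99.4 in Th9, against 97.5 and 92.6 in Th2 and 93.6 and 93.7 in Th17. Both Th9 libraries were above the other 4. Th9 exceeded Th2 by 0.79 ± 0.19 (SE; limma, adjusted p = 0.0365) and Th17 by 0.92 ± 0.19 (0.00946). The first call was lost without Th9 replicate 1 (0.0726), Th9 replicate 3 (0.186), Th2 replicate 3 (0.278), Th17 replicate 1 (0.0776) or Th17 replicate 3 (0.0706), and the second without Th9 replicate 3 (0.0721), Th17 replicate 1 (0.127) or Th17 replicate 3 (0.0661). The 2 regions called in Th2 alone were an intronic one (chr18:73652308-73652656) at 55.7 and 58.2 and an upstream one (chr18:73708457-73710883) at 31.1 and 46.1. The promoter was at 97.8 to 99.2 throughout.

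*Smad6* and *Smad7* encode the inhibitory SMADs. *Smad6* had 7 regions and none passed the test; its promoter (chr9:64020347-64023482) was at 82.3 and 88.8 in Th9, with 80.0 and 81.1 in Th2 and 90.0 and 85.4 in Th17, a difference of 0.41 ± 0.19 for the mean. *Smad7* had 19 regions, 10 of them called throughout. A downstream one (chr18:75418730-75420276) was at 92.7 and 86.7 in Th9, against 95.7 and 97.3 in Th2 and 87.5 and 85.9 in Th17, below Th2 in all 4 libraries. The difference from Th2 was -0.87 ± 0.18 in Th17 (limma, adjusted p = 0.00697), -0.65 ± 0.18 in Th9 (0.0628) and -0.76 ± 0.16 for the mean (0.00947). Without Th2 replicate 3 the mean call (0.138) and the Th17 call (0.0741) were lost, and the Th17 call also without Th17 replicate 1 (0.0899) or replicate 3 (0.0708). The *Smad7* promoter was at 88.0 to 97.0 and the subsets overlapped.

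*Ski*, a corepressor of SMAD complexes, had 26 regions, the most of the 10 genes, and both of the regions at which the mean of Th9 and Th17 passed the test as higher than Th2. The intronic region shown in the sequences (chr4:155161496-155164153) was at percentiles 83.5 and 83.7 in Th9, with 64.1 and 61.6 in Th2 and 79.7 and 80.2 in Th17, with no overlap. The mean exceeded Th2 by 0.61 ± 0.17 (limma, adjusted p = 0.0455), and the separate differences were 0.68 in Th9 and 0.54 in Th17, neither past the threshold. The promoter (chr4:155215552-155224314) was at 97.5 and 92.7, 87.9 and 91.8, and 97.1 and 93.7 across the subsets in that order, a difference of 0.66 ± 0.18 (0.0398).

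These *Ski* calls were near the threshold. The intronic call was lost without Th9 replicate 3 (adjusted p = 0.102), Th2 replicate 1 (0.251), Th2 replicate 3 (0.147), Th17 replicate 1 (0.0892) or Th17 replicate 3 (0.153), and the promoter call without Th9 replicate 1 (0.0925), Th2 replicate 1 (0.341), Th17 replicate 1 (0.16) or Th17 replicate 3 (0.0748), by limma in each case. With the width-weighted mean in place of the strongest peak, the promoter difference was 0.16 (0.707). A region in an intron of the neighbouring *Morn1* (chr4:155125842-155127276) was at 90.8 and 88.6 in Th17 against 79.7 and 50.7 in Th9 and 75.5 and 81.5 in Th2. Th17 exceeded Th2 there by 0.70 ± 0.21 (0.0488), and the Th9 minus Th17 difference was -0.96 ± 0.21 (0.0109). The first was lost without Th2 replicate 1 (0.3), Th17 replicate 1 (0.222) or Th17 replicate 3 (0.253), and the second without Th9 replicate 3 (0.0946), Th17 replicate 1 (0.104) or Th17 replicate 3 (0.104).

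*Skil*, the related corepressor, had 14 regions and none passed the test. Its promoter was at 97.6 to 99.8. The largest difference, -0.39 ± 0.17 for the mean, lay downstream (chr3:31145638-31146330), at 73.5 and 78.1 in Th9, against 90.8 and 90.4 in Th2 and 91.3 and 85.6 in Th17, so that Th9 alone was low.

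**Figure D4:**
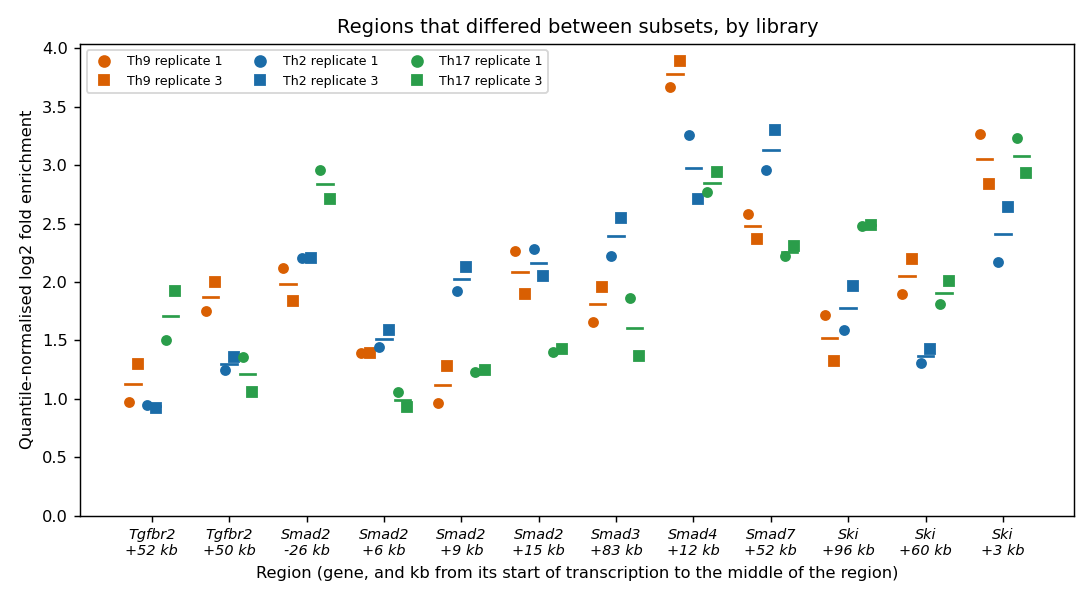
Quantile-normalised log2 fold enrichment (vertical axis) in each library for the 12 regions past an adjusted p of 0.05 in any of the 4 comparisons, labelled by gene and by distance from its start of transcription; short lines are subset means (n = 2). In the 9 kb *Smad2* region, the *Smad3* region and the *Smad7* region both Th2 libraries lie above the other 4. They also do so, narrowly, in the *Smad2* region nearest the start. Both lie below the other 4 in the 60 kb *Ski* region and the *Ski* promoter and, narrowly, in the farther *Tgfbr2* region.

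The wider pathway was read from 50 other genes of TGF-β release, reception and response, chosen with earlier results of these data known. Of 765 regions near them, 232 were tested, and the mean of Th9 and Th17 was higher than Th2 in 3 (1.29%, against 1.32% of all regions) and lower in 10 (4.31%, against 4.04%), by limma at the same threshold. These shares are near those of all regions, so the genes named next describe single regions and not the list. The 3 lay at *Furin*, a protease that processes the TGF-β precursor, *Fkbp1a*, which binds the type I receptor, and *Zeb1*, a transcription factor. The lower regions included 3 at *Itgav*, an integrin subunit that releases latent TGF-β, and 2 each at *Ldlrad4* and *Fkbp1a*. The *Zeb1* region was led by Th9, at percentiles 95.8 and 90.9 against 63.8 and 61.7 in Th2 and 66.9 and 63.9 in Th17. Regions called in all Th9 and Th17 libraries alone numbered 4 (0.523%, against 0.296% of all regions), at *Lrrc32*, *Smurf1*, *Tab1* and *Rgs16*, and those in Th2 alone 19 (2.48%, against 2.87%). The promoter of *Itgae*, which encodes the TGF-β-responsive integrin CD103, was called in both Th9 libraries alone, at 33.6 and 23.5.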

How the data were processed

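The 6 ATAC-seq libraries were grouped by the titles in their labels. The authors trimmed reads with Trim Galore 0.4.3, aligned them to mm10 with Bowtie2, removed duplicates with Picard, dropped mitochondrial and poorly mapped reads, and called broad peaks with MACS2 2.1.0 in each library on its own, with paired fragments, no control and no local background. A shift for Tn5 was not stated. The deposited lists give a score for display, left unused here, then fold enrichment as a linear ratio, then p-value and q-value as −log10, all as the authors made them; the −log10 values served only in alternatives. Positions were checked against GRCm38, past whose chromosome ends 0 peaks lay, and gene models were GENCODE's basic set for mouse. Sequences came from the RefSeq copy of the assembly. A library called a region by an overlap of at least 1 bp.

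Differences were tested with limma 3.58.1 (R 4.3.3; lmFit, eBayes with trend, all 6 libraries in 1 fit) on the log2 of the deposited fold enrichment of the strongest peak, quantile-normalised over regions called in all 6 libraries, two-sided, with Benjamini-Hochberg adjustment over all of them and a threshold of 0.05. The fit was tested on simulated data, and the outcome depended on how the noise was drawn. With variances drawn from limma's prior it recovered most large shifts, of 1 on the log2 scale, and no small ones. With each region's own variance, which is more uneven over regions than the real data, it recovered no shifts. With another model the share of false calls at the large shifts was above the threshold. With the prior that share was judged only as an average over large and small shifts. Shifts were put into Th9 and Th17 together, and only their mean against Th2 was scored. Every call near the members was smaller than 1, so recovery at the size of these calls was not shown. Named were regions over a promoter of a member, regions past the threshold in any comparison, regions called in Th2 alone or in Th9 and Th17 alone, and otherwise the region with the largest difference between the Th9 and Th17 mean and Th2; the other regions named were chosen after their values were seen. The members, gene lists and tests were chosen with earlier results of these data known. Alternatives are given with the closing section. Peaks were joined with pandas 2.3.3 and numpy 2.4.6 under Python 3.11.15. 1 marker of other cells is not reported here.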

Additional observations from a re-analysis of the deposited data

How the results depend on the processing

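The counts of regions near the 10 genes were small and moved with the settings. The shares of all regions moved too. In the main setting, 0.296% of all joined regions were called in Th9 and Th17 alone and 2.87% in Th2 alone. Above Th2 were 1.57% of all joined regions and below it 2.5%. The 4 comparisons, in the order used below, called 3.19%, 7.44%, 5.36% and 6.01% of all tested regions. With a −log10 q of at least 5, regions called in Th9 and Th17 alone numbered 0 in place of 2, and those above Th2 in all Th9 and Th17 libraries 2 in place of 9. Regions differing numbered 3 in place of 7 for Th17 against Th2 and 2 in place of 5 for Th9 against Th17. The shares of all regions were then 0.202%, 1.47%, 7.15% and 4.48%, and 105 regions near the 10 genes were left. With a fold of at least 4, the counts were 1 for Th9 and Th17 alone, 3 for Th2 alone (6), and 0 above and 2 below Th2 (9 each). The counts differing were 0, 1, 1 and 0 in Th9 against Th2, Th17 against Th2, their mean against Th2 and Th9 against Th17 (2, 7, 5 and 5). Of all regions, 0.23%, 5.09%, 2.58% and 5.67% fell in the first 4 groups, and 1.26%, 2.12%, 2.53% and 0.282% differed. Near the 10 genes 56 regions were left. Requiring 50% of a region to be covered gave 5 above and 4 below Th2 (0.911% and 1.2% of all regions). Within 10 kb, 5 were above Th2 and 3 differed between Th9 and Th17, and within 100 kb 16 were above and 18 below, with 5, 11, 9 and 10 differing in the 4 comparisons. These windows held 110 and 320 regions, of which 49 and 130 were tested, and the shares of all regions were those of the main setting. Normal scores gave 0, 1, 1 and 1 differing, against 0.269%, 3.04%, 1.5% and 1.57% of all regions. Median centring gave 7 for Th9 against Th2 (4.01% of all), and the width-weighted mean 3 for the mean of Th9 and Th17 (5.11%). Filling missing libraries with the lowest fold of their list gave 0 for Th9 against Th2, with 0 regions called in the genome. For Th17 it gave 11, against 4.67% of all regions. This fit took in regions called in at least 2 libraries, so 130 regions near the 10 genes were tested. Leaving out 1 library each gave 2 to 4 regions called in Th9 and Th17 alone and 6 to 13 in Th2 alone. It gave 9 to 15 above Th2 and 10 to 15 below it. Over all regions, the shares with 1 library left out ran from 0.479% to 1.32% for Th9 and Th17 alone and from 3.36% to 11.5% for Th2 alone. Above Th2 they ran from 1.9% to 6%, and below it from 2.96% to 6.85%. The replicate block gave 6 for Th9 against Th2 (4.37% of all) and 10 for Th9 against Th17 (6.94%), and all 19 calls were kept. The labels say nothing of a shared source, and same-numbered libraries deviated together with correlations of only 0.21, 0.01 and 0.0, so the numbers are not read as pairs. Of 351 alternative values for 29 named differences, 243 kept direction and side of the threshold, 94 kept direction only and 14 turned. The 29 include promoter differences without a call, which had none to lose, so all 94 came from the 19 calls. Those that turned were promoters without a call, and 1 called region. With 1 library left out each, the differences ran from -0.06 to 0.20 at the *Tgfb1* promoter (also -0.04), -0.21 to 0.00 at *Smad2*, -0.01 to 0.16 at *Smad4*, -0.30 to 0.46 at *Smad7* (also -0.03 and -0.09), -0.06 to 0.07 at *Skil* (also -0.03) and, for Th9 minus Th17 in the intronic *Tgfbr2* region, -0.15 (without Th2 replicate 3) to 0.81. The others were *Smad2* at 0.11 on median centring, *Smad7* at -0.00 with a fold of at least 4 and on normal scores, and *Skil* at -0.03 on normal scores. The cause was not tested. The lists hold no read counts, so counting error could not be separated from the spread between 2 libraries.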
